A study of Rattus norvegicus with 27 samples.

Results

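The regions described here are short windows of the rat genome that were dense in CpG sites and almost free of DNA methylation in the renal outer medulla. Windows in a broad measured run of unmethylated windows were left out. A neighbour with few measured positions ended a run, so whether a window lies in a wider unmethylated domain was often not measured. Autosomal CpG positions with at least 10 reads in all 12 libraries of the second of 2 deposited tables were placed in bins of 500 bp, and the level of a bin was the percentage of its reads that were methylated, averaged over the 12 rats. A bin was a member if it held 20 or more such positions, had a level under 10%, and did not lie in a run of 4 or more consecutive bins that each held 10 or more positions at under 10%. This gave 10920 members of 189815 bins (5.75%), or 10920 of the 12782 bins with 20 or more positions. The members were thus chosen by their methylation in the second table, so their low level in those 12 rats is a description that carries no test.

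The study profiled the renal outer medulla of Dahl salt-sensitive (SS) rats, bred for hypertension under dietary salt loading, by reduced representation bisulfite sequencing (RRBS), with 1 library per rat and 27 libraries in all. The first table held 15 rats from 2 colonies, named MCW and CRL. MCW SS LS (n = 3) ate the purified diet AIN-76A with 0.4% NaCl and MCW SS HS (n = 4) had 4% NaCl in the same diet over 14 days, beginning at 6 weeks. CRL SS LS (n = 4) ate a different, non-purified diet, 5L2F, with 0.75% NaCl, and CRL SS HS (n = 4) had AIN-76A with 4% NaCl over the same 14 days, so that in the CRL colony salt and diet type cannot be told apart. Both LS groups reached 8 weeks of age on their diet, and between them colony, diet type and NaCl cannot be told apart. The second table held 12 MCW SS rats that all had the same surgical preparation. Tissue from the group called 0.4% salt (n = 4) was taken before any GapmeR (an antisense oligonucleotide that leads to cleavage of its target RNA) or high salt was given. HS_SCR (n = 4) had 7 days of 4% NaCl and a scrambled GapmeR, dosed into the kidney at 4 mg/kg. HS_DT (n = 4) received GapmeRs against Dnmt3a and Tet3 at 2 mg/kg each and 4% NaCl over a period recorded as 7, without a unit. No expression was measured in these files, so neither the tissue nor the knockdown could be checked against marker genes. The tissue is a mixture of cell types, and a level is an average over all of them.

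Most cytosines of CpG dinucleotides in mammalian DNA are methylated, and the exceptions are concentrated in CpG islands, short stretches rich in C, G and CpG that overlap the start sites of most housekeeping and many developmental genes. DNMT3A and DNMT3B place new methyl groups, DNMT1 copies them at replication, and the TET enzymes oxidise 5-methylcytosine to 5-hydroxymethylcytosine and onward; bisulfite sequencing reads both of these modified bases as methylated. RRBS cuts the DNA with MspI at CCGG and sequences the short fragments, so that CpG islands are covered far more densely than the rest of the genome.

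The promoters of 6 genes show what such a bin looks like in sequence. Each is the 250 bases upstream of the annotated start, 5′ to 3′ in the direction of the gene, from RefSeq (GRCr8, the Brown Norway reference and not the sequence of these SS rats), in lower case with every CpG in capitals. Zc3h11a lies in the member with the lowest level. Mbd2 and Usp38 show promoters with nearly no methylated site, and Usp38 also had one of the smallest p-values in 2 comparisons. Aqp3, Scnn1b and Hoxd10 are tissue-restricted or developmental genes at the higher end of the listed genes in the second table.

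Zc3h11a: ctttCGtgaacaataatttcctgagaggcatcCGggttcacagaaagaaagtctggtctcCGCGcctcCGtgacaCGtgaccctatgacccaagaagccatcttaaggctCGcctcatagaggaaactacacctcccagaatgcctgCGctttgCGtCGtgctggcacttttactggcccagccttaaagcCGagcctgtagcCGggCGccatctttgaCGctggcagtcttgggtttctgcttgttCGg
Mbd2: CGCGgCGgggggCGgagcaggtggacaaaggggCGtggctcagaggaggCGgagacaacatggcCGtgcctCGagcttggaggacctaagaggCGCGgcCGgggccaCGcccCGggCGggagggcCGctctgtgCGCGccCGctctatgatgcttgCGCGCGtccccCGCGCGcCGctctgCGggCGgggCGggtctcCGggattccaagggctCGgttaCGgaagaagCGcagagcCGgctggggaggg
Usp38: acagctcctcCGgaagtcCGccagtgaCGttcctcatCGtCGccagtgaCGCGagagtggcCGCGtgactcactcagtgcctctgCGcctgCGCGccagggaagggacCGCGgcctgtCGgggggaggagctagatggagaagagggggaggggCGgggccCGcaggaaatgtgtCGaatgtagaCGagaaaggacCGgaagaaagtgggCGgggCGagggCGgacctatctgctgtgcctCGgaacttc
Aqp3: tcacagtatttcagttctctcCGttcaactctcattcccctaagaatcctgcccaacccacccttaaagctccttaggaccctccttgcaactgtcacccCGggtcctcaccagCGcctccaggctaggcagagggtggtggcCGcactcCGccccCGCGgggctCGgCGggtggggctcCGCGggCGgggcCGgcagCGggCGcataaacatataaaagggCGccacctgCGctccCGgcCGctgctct
Scnn1b: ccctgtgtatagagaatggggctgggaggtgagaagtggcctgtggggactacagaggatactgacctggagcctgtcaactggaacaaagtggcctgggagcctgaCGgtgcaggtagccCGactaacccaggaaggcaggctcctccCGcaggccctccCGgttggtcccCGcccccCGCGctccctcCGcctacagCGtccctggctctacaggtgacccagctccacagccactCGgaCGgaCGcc
Hoxd10: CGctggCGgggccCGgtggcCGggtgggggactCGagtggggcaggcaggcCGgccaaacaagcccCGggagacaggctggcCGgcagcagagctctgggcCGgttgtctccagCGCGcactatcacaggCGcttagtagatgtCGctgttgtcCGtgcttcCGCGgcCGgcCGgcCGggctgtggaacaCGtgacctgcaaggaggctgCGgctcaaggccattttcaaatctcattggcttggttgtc

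Zc3h11a, which encodes an RNA-binding zinc finger protein of mRNA export, has 15 CpGs in these bases, of which 14 were measured at mean levels of 0 to 0.137%. Mbd2, a protein that binds methylated CpG, has 33 CpGs and 4 copies of GGGCGG (the GC box bound by Sp1 family factors, either strand), and its 32 measured CpGs did not exceed 0.171%. Usp38, a deubiquitinase, has 24 CpGs and a match to the ETS motif CCGGAAG, and its highest measured site was at 0.677%. In each of these 3 promoters the median site was at 0%. The other promoters were not as empty. Aqp3, a water and glycerol channel of collecting duct cells, has 19 CpGs and a TATAAA match close to the start, with a median site of 0.291% and a highest site of 2.23%. Scnn1b, the beta subunit of the epithelial sodium channel, has only 12 CpGs, and its 9 measured sites had a median of 3.03% and a maximum of 5.48%. Hoxd10, a homeobox factor of limb and axial patterning, had a median of 1.97% and a maximum of 4.60% over 15 measured sites of 21.

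The members held a median of 31 common positions (20 to 87) and together 368858 of the 1188788 common autosomal positions (31.0%). Their levels were skewed. The median was 0.0874%, the mean 0.570%, and 95% of members were under 2.85%. In all, 5891 members (53.9%) were under 0.1%, 9323 (85.4%) were under 1% and 248 (2.27%) were at 5% or more. The median member had 126 reads per position and library and an SD over the 12 rats of 0.0753 percentage points. No unmethylated control DNA is given in the sources used here, so at levels of this size methylated and incompletely converted cytosines cannot be told apart. At the level of single positions, 161425 of 368858 (43.8%) had no methylated read in any of the 12 rats, at a median of 1047 reads over all libraries, and 811 (0.220%) were at 20% or more.

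**Figure D1:**
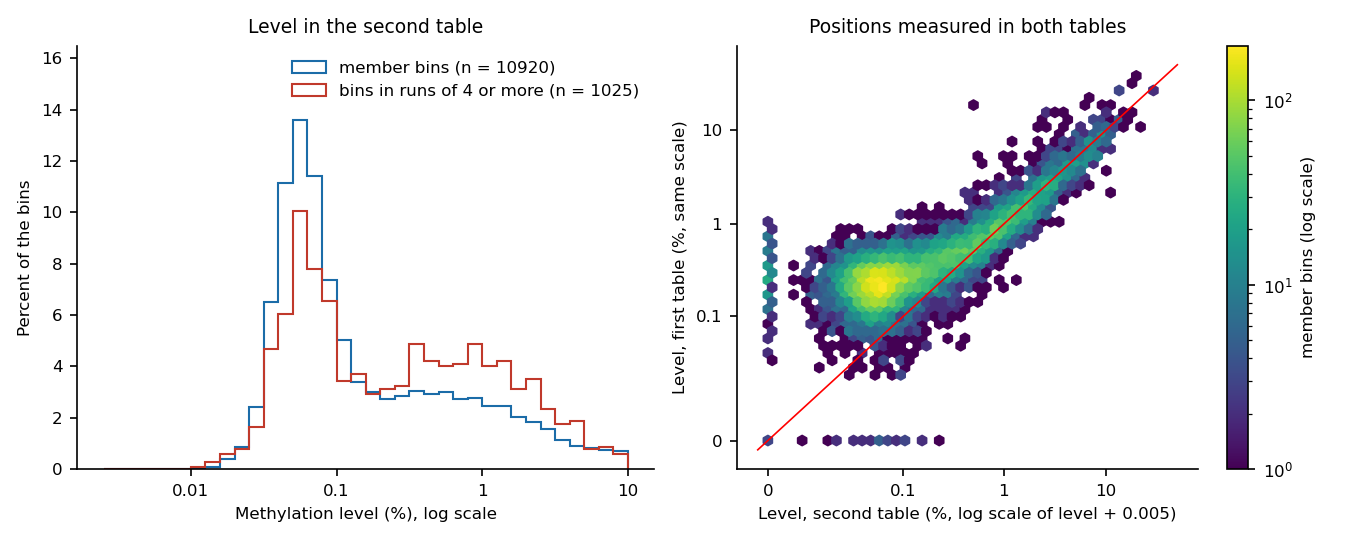
Left, the percentage of bins by methylation level (log axis) for the 10920 member bins and for the 1025 bins of the same CpG density in runs of 4 or more; the members' median is 0.0874% and that of the run bins 0.218%. Right, each member's level over positions measured in both tables (9829 members, log axes of level + 0.005, coloured by number of members): the line marks equality, and 85.4% of members lie above it, on the side of the first table.

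The limit of 10% fell in a thin part of the distribution. The highest members were chr4:146839501-146840000 at 9.87%, chr10:108822001-108822500 at 9.87% and chr3:178205001-178205500 at 9.86%, and the bins just outside were chr10:61723501-61724000, chr18:55414501-55415000 and chr5:95176001-95176500, at 10.003, 10.010 and 10.012% (coordinates in rn5, the build of the deposited tables). Between 9 and 10% there were 38 members, and between 10 and 11% there were 50 bins of the same CpG density. The limit on density divided a continuum too: the 599 members with exactly 20 positions had a median of 0.114%, and the 658 otherwise equal bins with 19 positions 0.117%. Denser members were emptier. Of members with 20 to 24 positions 19.3% were at 1% or more, against 9.03% of those with 50 or more.

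Sppl3, an intramembrane protease, starts in the member with the most positions, chr12:49156501-49157000, with 87 positions and a level of 0.0714%. In this bin the 0.4% salt rats were at 0.134, 0.0772, 0.0576 and 0.141%, the HS_SCR rats at 0.0484, 0.0682, 0.0825 and 0.101% and the HS_DT rats at 0.0370, 0.0400, 0.0341 and 0.0367%. The HS_DT rats lay below every other rat of this table, on 4 or 5 methylated reads each of 10803 to 12502; the bin was named for its number of positions, and its p was not among the smallest. The lowest members were the Zc3h11a bin, chr13:55250001-55250500 (0.00473%), chr3:52043001-52043500 (0.00514%) and chr10:110474001-110474500 (0.00745%). In the Zc3h11a bin 1 HS_SCR rat had a methylated read and the others had none at 591 to 1398 reads, which allows a level of up to 0.215 to 0.508% in a single rat, counting error only.

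Compared with bins of equal density in runs of 4 or more (1025 bins, median 0.218%, mean 0.793%), the members were lower at the median. Bins under 10% with 10 to 19 positions outside such runs (8326) had a median of 0.157% and a mean of 1.04%. All 3 sets were chosen on the level itself, so these values describe how the sets were drawn. Among members, 3570 stood alone, 5269 were in runs of 2 and 2081 in runs of 3 (8315 runs in all), and the members standing alone had the highest mean, 0.753%, against 0.477% in runs of 2 and 0.491% in runs of 3.

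The borders of the members were mostly not measured. No bin on either side held 3 common positions for 4298 of the 8315 runs (51.7%), and 661 runs (7.95%) had a measured bin on both sides. Of these 661 runs, 448 had both neighbours under 10%, 52 had both at 10% or more, and 1 had both at 50% or more. Away from the runs, over the bins that were measured, the mean level rose from 0.611% within to 5.22% in the next bin, 18.1% at 1000 bp, 32.6% at 2000 bp and 42.2% at 10000 bp. The levels were skewed, and the medians were lower. They were 0.0924% within, 0.386% in the next bin, 3.32% at 1000 bp and 19.1% at 2000 bp, so most bins measured up to 1000 bp away were still low. Few bins at each distance were measured, 4596 of them next to a run and 876 at 10000 bp. The same profile was seen in each group of the second table, with 18.1 ± 0.0959% at 1000 bp in 0.4% salt, 18.2 ± 0.330% in HS_SCR and 18.00 ± 0.131% in HS_DT (SD, n = 4 each). In the first table the 4 groups were between 9.97 and 10.4% at that distance, over a smaller set of 876 bins. The member set off most from both neighbours was chr5:21487001-21487500, at 0.0771% between bins at 22.2 and 24.3%. C13h1orf115 starts in another such member, chr13:107466001-107466500, at 1.07% between 14.8 and 29.1%. The 2 others were chr6:145480001-145480500 (0.0717% between 14.4 and 51.8%) and chr4:164018501-164019000 (6.89% between 66.3 and 20.8%).

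The rule did not use gene starts. Because no annotation of rn5 was used, starts were placed by the spacing of CpGs: a RefSeq promoter with at least 12 CpGs was put where its CpGs, in order and at their exact distances, matched measured positions. Of 33469 promoters 12410 had enough CpGs, 9104 matched, 8712 matched at 1 place, and 8624 of those (98.99%) fell on the chromosome that RefSeq gives. On autosomes 8444 starts of 7730 genes were placed. Members hold the start of 3957 of these genes (51.2%), of which 3670 were protein coding and 284 long non-coding. In all, 3663 members (33.5%) held a start, and 5672 (51.9%) held one or lay next to a bin that did. The share that held a start was 16.1% for bins of equal density in broad runs and 3.58% for dense bins at 10% or more. It was 19.3% for bins under 10% with 10 to 19 positions outside such runs. The share that held a start or lay next to one was 39.7, 5.85 and 39.7%, in the same order. Among members the share that held a start fell with the length of the run, from 39.6% in runs of 1 to 32.5% in runs of 2 and 25.8% in runs of 3. Placement needs measured and correctly spaced CpGs, so starts in poorly covered bins were missed and the placed starts favour bins with many measured CpGs. Members with a start had a median level of 0.0649% and 6.66% of them were at 1% or more; for members without one these were 0.114% and 18.6%. Starts of genes in opposite directions shared a member in 313 of 3663 cases (8.54%), the arrangement of bidirectional promoters.

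Around the starts that lay in members, methylation was lowest at the start itself. The mean site level was 0.227% in the 250 bp upstream and 0.271% in the 250 bp downstream. It was 5.34% at 750 to 1000 bp upstream and 9.41% at 1000 to 1250 bp downstream, and reached 26.1% at 1750 to 2000 bp upstream and 35.0% at 2000 to 2250 bp downstream. The 2 innermost windows rest on 4010 and 4053 starts, the 2 outermost of these on 168 and 186. Each value differed between the 3 groups of the second table by less than 0.3 percentage points.

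**Figure D2:**
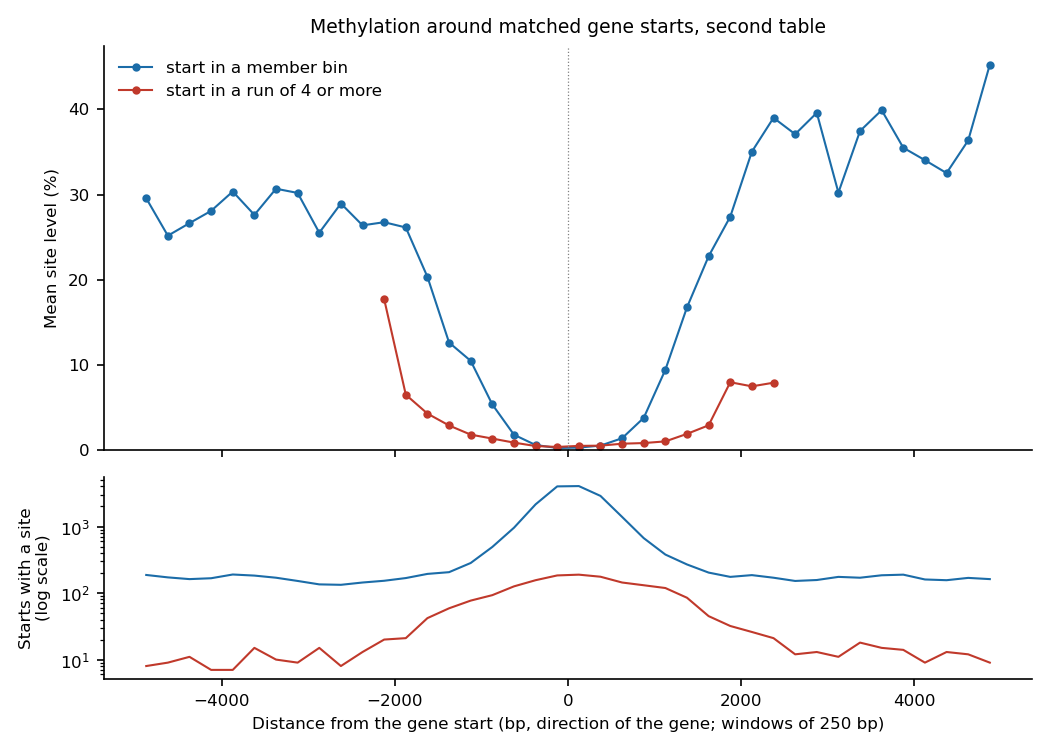
Top, mean methylation level of sites (%) in 250 bp windows by distance from the gene start in the direction of the gene, for starts in members and in runs of 4 or more; windows with fewer than 20 starts are not drawn for the runs. Bottom, the number of starts with a measured site in each window (log axis): the members' curve is lowest next to the start, at 0.227 and 0.271%, where over 4000 starts contribute.

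The promoter sequences of starts in members were rich in GC (67.2 ± 6.74%, SD over 4239 promoters, against 52.7 ± 11.3% over all 33469) and in CpG (observed over expected 0.877 against 0.460). Placement itself required 12 CpGs, so the promoters of all placed starts are the nearer reference (GC 64.9%, CpG ratio 0.839). GGGCGG on either strand was in 79.4% of promoters in members, 74.4% of all placed and 33.1% of all promoters. The ETS motif CCGGAAG was in 21.8, 21.1 and 8.75%, in the same order, and in 6.74% of the 193 promoters in broad runs. TATAAA was in 3.21% of members' promoters, 4.01% of placed and 14.2% of all, and CCAAT in 33.4, 35.4 and 37.5%. The E box CACGTG was in 10.8, 10.4 and 6.42%, and the CRE TGACGTCA in 3.75, 3.72 and 1.83%. A match describes letters in the 250 bases before and 50 after a start and no bound factor.

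Among enzymes and readers of DNA methylation, 10 of 14 genes had a placed start and 4 of them started in members: Tet3, Mbd1, Mbd2 and Mbd3. Tet3, the enzyme targeted in HS_DT, starts in chr4:179732501-179733000 (32 positions, level 0.296%). Its bin was at 0.331, 0.392, 0.287 and 0.282% in the 0.4% salt rats, 0.196, 0.266, 0.209 and 0.313% in HS_SCR and 0.310, 0.111, 0.575 and 0.274% in HS_DT. The groups overlapped, and the HS_DT rats included both the lowest and the highest value. In the first table the same bin was at 0.224, 1.04 and 0.696% in MCW SS LS, 0.276, 0, 0.139 and 0% in MCW SS HS, 0.521, 0.493, 0.322 and 0% in CRL SS LS and 0, 0, 0.423 and 0.815% in CRL SS HS, at 567 to 1532 reads a rat. A rat without a methylated read still allows 0.261 to 0.529% here, so these groups were not separable at this depth. Mbd2 was at 0.0423 ± 0.0252% in 0.4% salt, 0.0218 ± 0.0201% in HS_SCR and 0.0362 ± 0.0306% in HS_DT (SD, n = 4 each), and Mbd1 and Mbd3 had mean levels of 0.0565 and 0.0554%. The start of Dnmt3a was not placed in a member.

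Few starts of genes that mark kidney cell types were placed: 2 of 15 for the thick ascending limb, 3 of 11 for the collecting duct, 1 of 8 for the proximal tubule and 2 of 10 for vessel and stroma. Ptger3, the prostaglandin E receptor EP3 of the thick ascending limb, was at 0.229%. Lrp2, the endocytic receptor megalin of the proximal tubule, was at 0.385% and Kdr, the endothelial VEGF receptor, at 0.302%. The 2 collecting duct genes in members were higher in the second table. Aqp3 was at 0.965 ± 0.273%, 1.14 ± 0.623% and 1.05 ± 0.251% in 0.4% salt, HS_SCR and HS_DT. In the first table, over 6 positions, Aqp3 was at 0.524 ± 0.590% in MCW SS LS and 1.13 ± 1.24% in MCW SS HS. It was at 0.166 ± 0.331% in CRL SS LS and 0.260 ± 0.325% in CRL SS HS. Lrp2 was at 0.682, 0.821, 1.44 and 0.842% in the same order, so Aqp3 was higher than Lrp2 there in MCW SS HS only. Scnn1b was at 2.42, 2.24, 2.66 and 2.50% in the 0.4% salt rats, 3.17, 2.27, 3.55 and 3.45% in HS_SCR and 1.23, 2.86, 2.47 and 4.13% in HS_DT. HS_SCR replicates 1, 3 and 4 lay above every 0.4% salt rat and replicate 2 did not, and the HS_DT rats spanned both groups. In the first table, over 5 positions and 111 to 355 reads a rat, Scnn1b was at 1.90 ± 2.19% in MCW SS LS, 1.72 ± 1.81% in MCW SS HS, 0.951 ± 0.837% in CRL SS LS and 1.12 ± 0.846% in CRL SS HS. No start on the list of immune genes was placed, so nothing can be said of them.

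Of 9 placed starts among genes of blood pressure control and oxidative stress, 6 lay in members. Nr3c1, the glucocorticoid receptor, was lowest at 0.0258%. Sod2 and Sod1, the mitochondrial and cytosolic superoxide dismutases, were at 0.0385 and 0.0736%, and Sgk1, the aldosterone-induced kinase, at 0.0428%. Wnk4, a kinase that controls the thiazide-sensitive cotransporter, was at 0.202%, and Ace, the angiotensin converting enzyme, was highest at 0.370% (0.365 ± 0.136% in 0.4% salt, 0.400 ± 0.116% in HS_SCR, 0.345 ± 0.159% in HS_DT). For Ace the differences between these means were under the SDs. This did not hold for each gene: Sod1 was at 0.134 ± 0.0731% in 0.4% salt, 0.0428 ± 0.0478% in HS_SCR and 0.0442 ± 0.0295% in HS_DT.

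The developmental genes covered a wide range of levels. Of the kidney development genes Wnt4, a signal for tubule formation, was at 0.104%, the receptor kinase Ret at 0.540%, Wnt9b at 0.882% and the transcription factor Wt1 at 1.11%; Pax2 started in a broad run, at 1.30%. Of the Hox genes Hoxa13 was at 0.163%, Hoxd9 at 0.696%, Hoxd1 at 1.39% and Hoxd10 at 2.34%. The Hoxd10 bin was at 2.17, 1.74, 2.89 and 2.27% in 0.4% salt, 1.95, 3.15, 4.33 and 1.74% in HS_SCR and 2.19, 2.09, 1.09 and 2.40% in HS_DT, with overlap between all 3. The basic genes Tbp (the TATA-binding protein), Polr2a (the largest subunit of RNA polymerase II) and Rps18 (a ribosomal protein) were at 0.0343, 0.0595 and 0.0806%. Of imprinted genes, Gnas was at 0.0626% and Dlk1 at 1.07%, while the start of Igf2r lay in a dense bin that was no member, at 30.7%. No bin of a listed gene that entered the test reached an adjusted p under 0.05 in any comparison (quasi-binomial test with limma-moderated dispersion). Bins with on average fewer than 5 methylated reads per library, or fewer than 3 positions, did not enter, so for them the test gives no result.

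**Figure D3:**
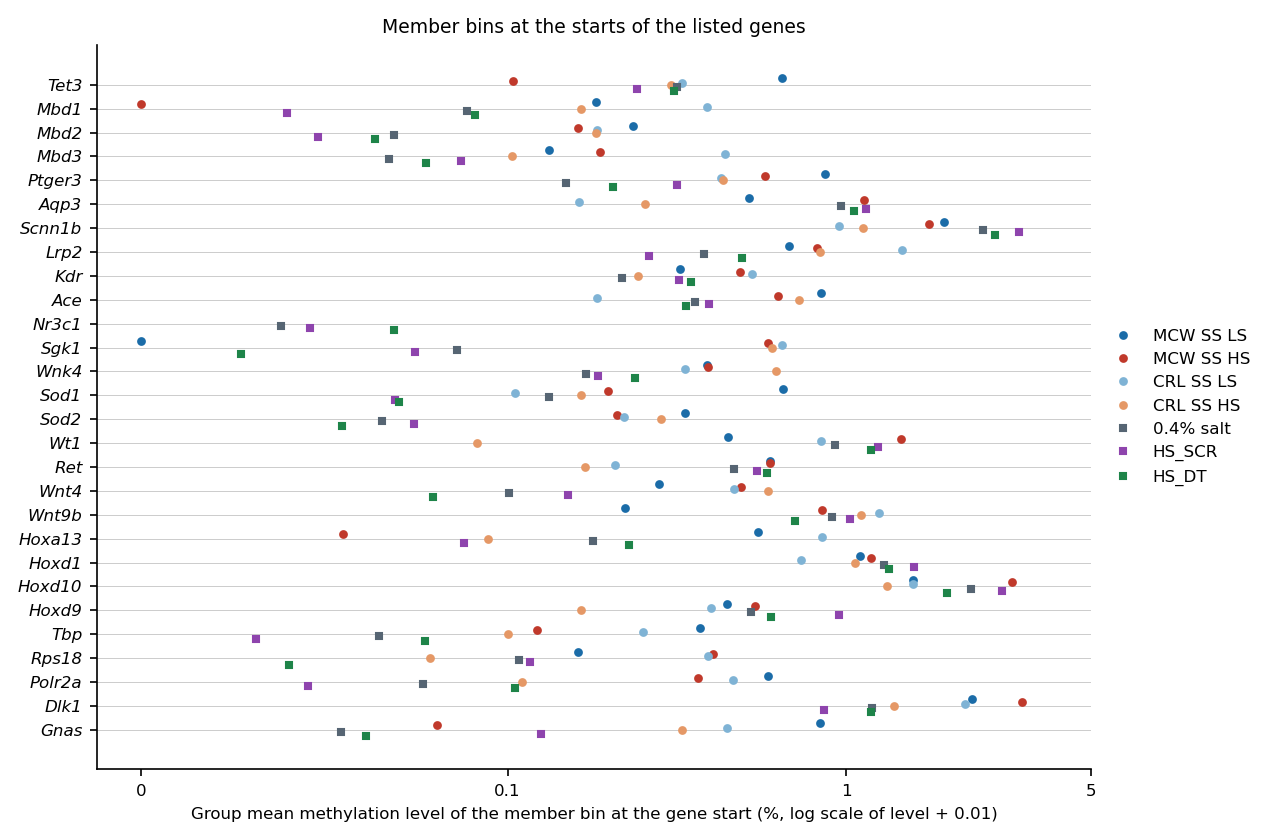
Mean methylation level (%, log axis of level + 0.01) of the member bin at the start of each listed gene in the 7 groups; circles are groups of the first table (3 or 4 rats each) and squares groups of the second (4 rats each). Scnn1b, Hoxd10, Dlk1 and Hoxd1 lie to the right, and Mbd2, Nr3c1, Sod2 and Tbp to the left in the second table; Nr3c1 has no value in the first table.

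The 12 rats of the second table had nearly the same mean over all members. It was 0.559 ± 0.0155% in 0.4% salt (0.545 to 0.581%), 0.586 ± 0.0293% in HS_SCR (0.549 to 0.618%) and 0.565 ± 0.00570% in HS_DT (0.561 to 0.573%; SD, n = 4 each). The difference between HS_SCR and 0.4% salt was 0.0268 percentage points and that between HS_DT and HS_SCR was -0.0209, beside a spread between rats of 0.0235 and 0.0211, and the rats of the groups overlapped. Both comparisons use the same HS_SCR rats. For the first table, 9909 members (90.7%) had 3 or more positions, and the mean over them was 0.730 ± 0.138% in MCW SS LS (n = 3), 0.747 ± 0.139% in MCW SS HS, 0.735 ± 0.0479% in CRL SS LS and 0.694 ± 0.0557% in CRL SS HS (SD, n = 4 each). The differences were 0.0174 for MCW SS HS minus MCW SS LS, -0.0401 for CRL SS HS minus CRL SS LS, -0.00473 for MCW SS LS minus CRL SS LS and 0.0528 for MCW SS HS minus CRL SS HS, each under the spread between rats and with overlapping rats. Because the members were picked by this level in the second table, no p is given for these means.

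The first table was more uneven from rat to rat. There, a rat's median over members ran from 0 to 0.505%, while the 12 rats of the second table lay between 0.0935 and 0.105%. The largest total was that of MCW SS LS replicate 2. The highest medians were those of MCW SS LS replicate 2 (0.505%) and MCW SS HS replicate 3 (0.462%), while CRL SS HS replicate 1 had a median of 0. The total of reads over CpG positions was 35040331 to 95102303 per library of the first table and 174400859 to 257658964 for the second, and the median depth at common positions was 24 to 66 and 66 to 98 reads. The part of depth, or of bisulfite conversion, in these medians was not tested.

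**Figure D4:**
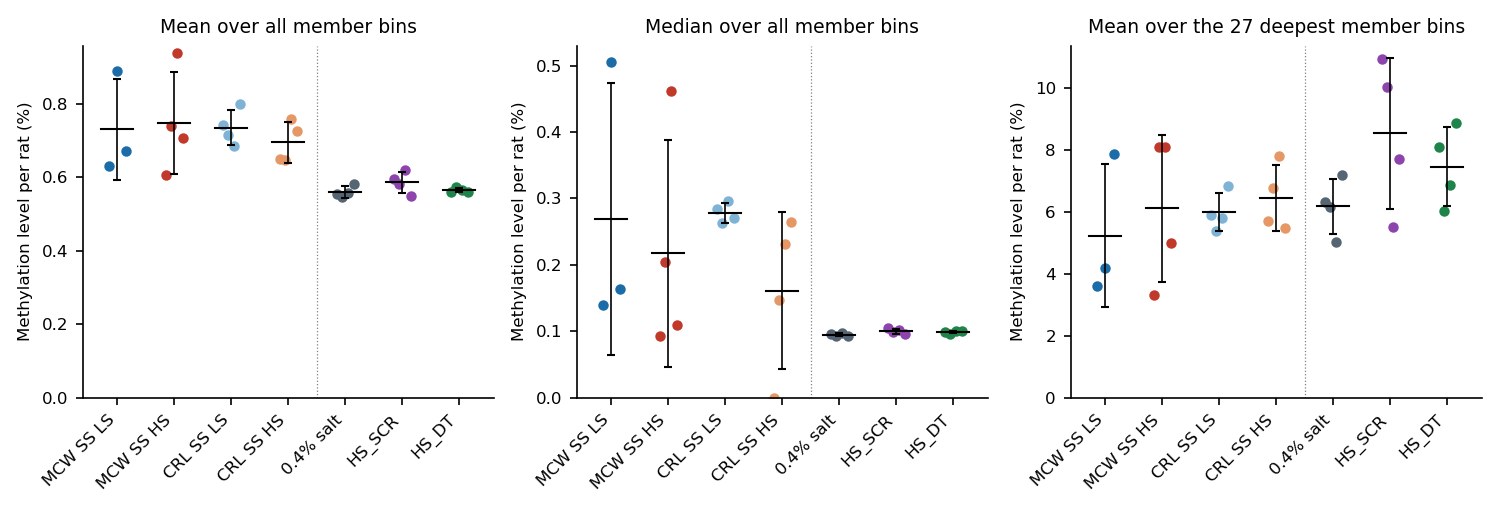
Methylation level (%) of each rat in the 7 groups, as the mean over all members (left), the median over all members (middle) and the mean over the 27 members with over 1000 reads per position (right); bars are the group mean and SD, and the grey line parts the first table from the second. The median is between 0.0935 and 0.105% in all 12 rats of the second table and reaches 0.505% in the first.

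The 27 members with over 1000 reads per position, spread over 8 chromosomes, were a small and unlike set. Their levels were 2.53 to 9.80%, they held 13.7% of all reads in members and 71.6% of the methylated ones, and the deepest, chr6:39274501-39275000, had 13961 reads per position. Their mean per rat was 5.03 to 7.19% in 0.4% salt, 5.52 to 10.9% in HS_SCR and 6.03 to 8.89% in HS_DT, and 3.31 to 8.10% over the rats of the first table. A level computed from summed reads of all members follows these 27 bins and ran from 1.13 to 2.42% over the rats of the second table and from 1.27 to 3.19% over those of the first. Without them the group means were 0.545 ± 0.0144% in 0.4% salt, 0.566 ± 0.0314% in HS_SCR and 0.548 ± 0.00876% in HS_DT (SD, n = 4 each). In 572 members (5.24%), more than 50% of positions had read counts that recurred exactly, in all 24 columns, elsewhere in the second table, mostly on the same chromosome at a median distance of 436789 bp; the share was 6.15% over all bins.

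Over the positions that both tables measured, the members' levels in the first table followed those in the second. For 9829 members with at least 3 shared positions (median 17) the mean was 0.723% for the first table and 0.558% for the second, the medians were 0.299 and 0.0866%, and 85.4% of members were higher in the first. The correlation of levels across members was r = 0.895 (Spearman's rho 0.699), a description over bins that share libraries and CpG density. At 10% or more over these positions there were 55 members by the first table, 37 by the second and 28 by both. The tables differ in surgery, depth and sequencing lane, which cannot be told apart here. The second table holds MCW rats only, and the means of the MCW groups alone in the first table were 0.730 and 0.747%.

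The quasi-binomial test of methylated against unmethylated reads per bin, moderated across bins with limma and adjusted by Benjamini-Hochberg over every bin tested, called no member in any of the 6 comparisons and no other bin either (0% of bins tested). Only members with enough methylated reads entered. Without that filter 9713 to 9773 members were tested in the comparisons of the first table and 10913 to 10916 in those of the second, and none was called there either. In MCW SS HS minus MCW SS LS 2882 members were tested, the smallest adjusted p was 0.712, and 168 (5.83%) had an unadjusted p under 0.05 beside 6.17% of all bins tested; 89 of them were higher on high salt, a direction and p seen in 3.86% of all bins. In CRL SS HS minus CRL SS LS 1909 were tested, the smallest adjusted p was 0.635, and 139 (7.28%) had an unadjusted p under 0.05 beside 6% of all bins, 77 of them higher on high salt beside 4.1% of all bins. The shares of members in the 2 salt comparisons were thus near those of all bins. The direction changed with the filter. Without it, 202 of 706 members with an unadjusted p under 0.05 were higher on high salt in the MCW comparison (7.35% of all bins had such a p, 3.53% with that direction), and the median difference over members was -0.0244 percentage points against 0.0292 with the filter (0.0242 over all bins without it). In the CRL comparison it was 242 of 859 (7.71 and 3.96% of all bins), with a median of -0.0610 against -0.0125 (-0.00211 over all bins).

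Between colonies, MCW SS LS minus CRL SS LS had 2443 members tested, a smallest adjusted p of 0.557 and 174 members (7.12%) at an unadjusted p under 0.05 beside 6% of all bins; 117 were higher in MCW, beside 3.54% of all bins. MCW SS HS minus CRL SS HS had 2279 members tested, a smallest adjusted p of 0.662 and 168 (7.37%) beside 6.17%, with 117 higher in MCW beside 3.65%. The median difference over members was 0.0256 and 0.115 percentage points in these comparisons, beside 0.0235 and 0.0464 over all bins tested. Leaving out single rats, the first ranged from -0.0886 (without MCW SS LS replicate 2) to 0.0722 (without MCW SS LS replicate 1), and the second from 0.0483 (without MCW SS HS replicate 3) to 0.163 (without CRL SS HS replicate 3). The excess of members on the MCW side in the low-salt comparison changed with 1 library, MCW SS LS replicate 2, the deepest. Without it, 155 of 1778 members (8.72%) had an unadjusted p under 0.05 beside 1782 of 30071 bins, and 75 of the 155 were higher in MCW.

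In HS_SCR minus 0.4% salt 4854 members were tested, the smallest adjusted p was 1.00, and 226 (4.66%) had an unadjusted p under 0.05 beside 4.92% of all bins. Of these, 155 were higher in HS_SCR beside 2.46% of all bins. In HS_DT minus HS_SCR 4880 were tested, the smallest adjusted p was again 1.00, and 217 (4.45%) stood beside 4.63% of all bins, with 67 higher in HS_DT beside 2.35%. The share of members with a small p was therefore near that of all bins, while more of them were on the high side of HS_SCR in both. The HS_SCR rats are common to the 2 comparisons. The median differences over members were 0.0196 and -0.0120 percentage points, beside -0.0101 and 0.00846 over all bins tested. Without HS_SCR replicate 3 they were 0.01002 and -0.000881, and without HS_SCR replicate 1 the second was -0.00697. Without HS_SCR replicate 4 they were 0.0298 and -0.0210.

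A count model gave other numbers. edgeR's likelihood ratio test on the same reads (Benjamini-Hochberg over all bins) called 11 members in MCW SS HS minus MCW SS LS. These were 0.382% of members tested, beside 0.277% of all bins, and 6 of the 11 were higher in the first group named. In the same terms it called 16 in CRL SS HS minus CRL SS LS (0.838 beside 0.373%, 10 higher), 19 in MCW SS LS minus CRL SS LS (0.778 beside 0.285%, 10 higher) and 15 in MCW SS HS minus CRL SS HS (0.658 beside 0.341%, 12 higher). In the second table it called 20 in HS_SCR minus 0.4% salt (0.412 beside 0.151%), of which 17 were higher in HS_SCR, and 24 in HS_DT minus HS_SCR (0.492 beside 0.153%), of which 18 were lower in HS_DT. limma on log ratios called 0 members in each, with 71 to 184 at an unadjusted p under 0.05, a lower share than over all bins in each comparison. The lowest share was 71 of 2882 members (2.46%) beside 1717 of 32445 bins, in MCW SS HS minus MCW SS LS. The highest was 86 of 1909 members (4.50%) beside 1745 of 30313 bins, in CRL SS HS minus CRL SS LS. The number of members called thus differed between these models.

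The members with the smallest p-values are described with their rats, since none passed. In MCW SS HS minus MCW SS LS it was chr5:33529501-33530000 (50 positions), at 1.26, 3.12 and 4.47% in MCW SS LS and 6.15, 7.55, 8.68 and 8.64% in MCW SS HS. Every high-salt rat of that colony lay above every low-salt rat, a difference of 4.80 percentage points (SE 1.11, adjusted p = 0.712). The CRL rats overlapped, with 0.739, 1.68, 2.18 and 9.76% in CRL SS LS and 4.75, 1.24, 11.1 and 6.07% in CRL SS HS, and the 12 rats of the second table were between 2.69 and 4.83%. Smyd2, a lysine methyltransferase, starts in a member that was lower on high salt in the MCW colony, at 1.02, 0.827 and 0.441% in MCW SS LS and 0.177, 0, 0.0595 and 0% in MCW SS HS (difference -0.70, adjusted p = 0.732). The groups did not overlap, on 0 to 19 methylated reads per rat.

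In the CRL colony chr5:160093501-160094000 was at 0.890, 0.103, 1.09 and 0% in CRL SS LS and 1.62, 2.08, 2.98 and 2.90% in CRL SS HS, without overlap (difference 1.87, SE 0.429, adjusted p = 0.659). The MCW groups went the other way in value, with 2.84, 1.17 and 1.72% in MCW SS LS and 1.24, 0.299, 1.22 and 0% in MCW SS HS. The same bin was under 0.16% in all 12 rats of the second table. Pde4d, a cyclic AMP phosphodiesterase, starts in chr2:59724501-59725000, which was at 6.55, 5.62 and 4.05% in MCW SS LS and 2.99, 2.23, 2.36 and 2.22% in CRL SS LS (difference 2.96, SE 0.751, adjusted p = 0.557). The low-salt groups, which differ in both colony and diet, did not overlap in this bin. The MCW rats of the second table were at 4.68 to 8.86%. On high salt the Pde4d bin was at 2.56, 11.4, 7.74 and 7.51% in MCW SS HS and 2.77, 1.73, 4.44 and 1.97% in CRL SS HS, with 1 MCW rat inside the range of the CRL rats.

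Without MCW SS LS replicate 3, MCW SS LS minus CRL SS LS (colony and diet together) called 4 of 2662 members tested (0.150%), a lower share than the 0.485% of all bins. They were chosen after their values were seen: the Pde4d bin (6.09 against 2.45%, adjusted p = 0.0474, limma-moderated), chr5:95180001-95180500 (4.08 against 8.81%, adjusted p = 0.0272), chr6:39270001-39270500 (5.69 against 9.83%, adjusted p = 0.0417) and chr18:447501-448000 (10.6 against 1.21%, adjusted p = 0.0375). The bins on chromosomes 5 and 6 had 4910 and 2790 reads per position, among the deepest. With all 3 MCW SS LS rats none of the 4 passed.

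Usp38 was uneven between the rats of HS_SCR. Its bin, chr19:41576001-41576500 (41 positions), was at 0.0929, 0.0482, 0.0271 and 0.0898% in 0.4% salt, 0.0566, 0.557, 0.535 and 0.590% in HS_SCR and 0.0176, 0.0811, 0.0340 and 0% in HS_DT. HS_SCR replicates 2, 3 and 4 stood at 0.535% or more, and replicate 1 lay within the range of the other groups, so that the groups overlapped. The differences were 0.37 for HS_SCR minus 0.4% salt and -0.40 for HS_DT minus HS_SCR (both adjusted p = 1.00), over 4305 to 7390 reads a rat. Brcc3, a deubiquitinase of DNA repair, starts in chr9:8867001-8867500, at 1.42, 1.69, 1.50 and 1.01% in 0.4% salt, 0.582, 0.711, 0.402 and 0.332% in HS_SCR and 1.30, 0.629, 1.20 and 0.908% in HS_DT. All HS_SCR rats lay below all 0.4% salt rats (difference -0.90, SE 0.168, adjusted p = 1.00), and 1 HS_DT rat was inside the HS_SCR range. In HS_DT minus HS_SCR the smallest p was at chr19:63800001-63800500, with 5.66, 5.05, 5.42 and 4.92% in HS_DT against 8.17, 7.84, 6.82 and 6.86% in HS_SCR and 6.70, 6.54, 7.69 and 9.03% in 0.4% salt (difference -2.16, SE 0.382, adjusted p = 1.00). Here the HS_DT rats were below all 8 other rats of the table.

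The members that varied most over the 12 rats were chr18:447001-447500 (SD 4.78), chr2:148416501-148417000 (SD 4.59) and chr20:39332501-39333000 (SD 4.10). The first was at 9.14, 12.6, 12.1 and 9.26% in 0.4% salt, 8.11, 7.03, 15.4 and 12.7% in HS_SCR and 1.68, 1.75, 13.5 and 2.40% in HS_DT. In HS_DT 3 rats were low and replicate 3 was as high as the other groups. The second ran from 1.62 to 17.6% within the 0.4% salt rats alone.

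A low average hid short methylated stretches in a few members. A stretch was defined, after the levels had been seen, as 3 or more consecutive positions each at 20% or more in the second table. It occurred in 70 members (0.641%), with a median length of 32 bp (6 to 166), 4 positions and a level of 33.7% (21.2 to 71.0%). The positions of these bins under 20% had a median of 0.872%, and that limit fixes part of the contrast. In 38 of the 70, positions under 20% lay on both sides within the bin. Read depth was lower in the stretch than at the positions under 20% in 56 of 70, at a median of 80.1 against 153 reads. Of the 70, 9 were members with mostly recurring counts. The part of depth or of recurring counts was not tested. The first table, which played no role in the definition, measured 35 of the stretches at 3 or more positions, and all 35 were at 20% or more there (median 37.0% against 34.0% in the second table). The median stretch was at 35.4% in MCW SS LS, 40.4% in MCW SS HS, 35.7% in CRL SS LS, 39.7% in CRL SS HS, 34.9% in 0.4% salt, 34.7% in HS_SCR and 35.2% in HS_DT. The values of the first table rest on 35 stretches and those of the second on 70, and differences between groups were not tested.

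Of the 70 stretches 15 (21.4%) were in a member with a placed start, among them those of Dapk2, a death-associated kinase, Mt1, the metal-binding metallothionein, Ramp1, a subunit of the receptor for calcitonin gene-related peptide, Tpm2, a tropomyosin, and Dynll1, a dynein light chain. Hint1, a nucleotide hydrolase, starts in chr10:39980501-39981000, where 7 positions within 72 bp reached 51.3% by the second table and 63.0% by the first, between positions near 0%. The Hint1 stretch was at 40.5 ± 6.60% in MCW SS LS (n = 3), 46.9 ± 5.49% in MCW SS HS, 48.0 ± 6.50% in CRL SS LS, 45.2 ± 2.29% in CRL SS HS, 35.4 ± 5.04% in 0.4% salt, 40.4 ± 5.57% in HS_SCR and 40.2 ± 6.32% in HS_DT (SD, n = 4 each). In the Hint1 stretch the rats of the groups overlapped within each table. This did not hold for each stretch. In the bin of Nek2, described below, the stretch was at 39.6 to 40.5% in the MCW SS LS rats and 42.4 to 54.5% in the MCW SS HS rats. The CRL groups overlapped there, at 33.5 to 48.1% in CRL SS LS and 43.7 to 63.4% in CRL SS HS.

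The 3 members that were highest in the first table, among those with 20 or more shared positions, each held such a stretch. The Hint1 bin was at 20.6% by the first table and 7.31% by the second over 34 shared positions. The bin of Nek2, a centrosomal kinase, and LOC120096356, chr13:115071501-115072000, was at 16.0 and 2.66% over 27, and that of Nmrk1, a nicotinamide riboside kinase, and Ostf1, chr1:241849001-241849500, at 16.0 and 2.73% over 23. Averaged over positions instead of reads the tables were closer, at 10.02 and 8.34% for Hint1, 11.4 and 9.29% for Nek2 and 11.6 and 8.29% for Nmrk1.

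**Figure D5:**
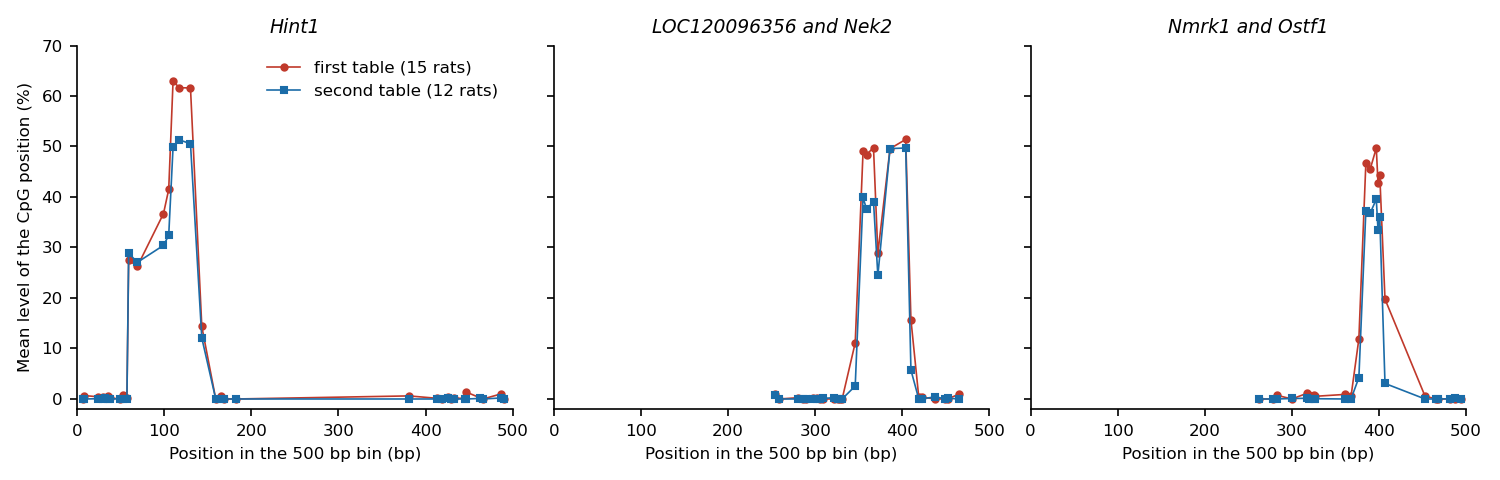
Mean methylation level (%) of each CpG position along the 500 bp bins at Hint1, LOC120096356 and Nek2, and Nmrk1 and Ostf1, over the 15 rats of the first table and the 12 of the second, at positions in both. In each bin a few adjacent positions stand at up to 63.0, 51.4 and 49.7% in the first table, between positions near 0% in both tables.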

How the data were processed

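The deposited tables give, for every CpG position and library, counts of methylated (C) and unmethylated (T) reads, per the file headers; these are raw counts, with no normalization. Trim Galore 0.2.5 and the genome build rn5 are named per the submitters' processing notes; the aligner and methylation caller: not given in the sources used here. Of 27 libraries the first table holds 15 libraries and the second 12; each table carries 1 lane label. Columns were matched to rats by animal number, and the mark RP stands on MCW SS LS replicate 1 in a title but on replicate 2 in the column names.

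Positions covered by 10 or more reads in each library of its table were kept, and reads were summed in 500 bp bins. Bins with 3 or more positions and, on average, 5 reads of each kind per library entered a quasi-binomial logistic regression per comparison. Its dispersion was moderated with limma 3.58.1, held at 1 or more, and adjusted by Benjamini-Hochberg over all bins tested (two-sided, threshold 0.05). The method was tested on simulated data. edgeR 4.0.16 and limma on log ratios were alternatives, with leaving out each rat, a replicate block and other limits. Each rat is 1 value, and intervals from a count of 0 (3 counts of the total) cover counting error only. RRBS reads carry no molecular identifiers here.

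Bins were named by rule: the 3 smallest p-values per direction and comparison, the most positions, highest and lowest level, largest SD, largest depth, largest gap to both neighbours, and starts of listed genes. The rule on listed genes needed an annotation of rn5; CpG spacing was used in its place, decided after the files were seen, as were the stretches, the recurring counts and the bins highest over shared positions. The members and gene lists were chosen with earlier results of these data known. Python 3.11.15, numpy 2.4.6, scipy 1.17.1, pandas 2.3.3, matplotlib 3.10.9 and R 4.3.3 were used.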

Additional observations from a re-analysis of the deposited data

Results flagged for a closer look

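Values given rat by rat in groups of 4 were searched for a single rat standing apart (Dixon's gap over range at the 95% level). This marked 9 of 107 groups. The nominal chance rate of about 1 in 20 assumes normal values in groups not picked by their values. Several of these bins were picked for a small p or a large SD, and some groups rest on very few methylated reads. The rate therefore gives no measure for the 9. The Usp38 bin had a low HS_SCR rat at 0.0566% beside 0.535, 0.557 and 0.590%, and a high CRL SS LS rat at 0.559% beside 3 rats at 0, where 1 methylated read makes the value. The Smyd2 bin had 1 CRL SS HS rat at 0.199% beside 3 at 0, on 2 methylated reads. In chr5:33529501-33530000 a CRL SS LS rat was at 9.76% beside 0.739, 1.68 and 2.18%, and an HS_DT rat at 4.14% beside 2.69, 2.71 and 2.83%. In chr19:63800001-63800500 an MCW SS HS rat was at 12.5% beside 5.98, 6.11 and 6.79%. In chr18:447001-447500 an HS_DT rat was at 13.5% beside 1.68, 1.75 and 2.40%. In chr2:148416501-148417000 an MCW SS HS rat was at 16.4% beside 1.61, 1.79 and 2.21%, and an HS_SCR rat at 10.3% beside 2.94, 3.198 and 3.42%. The bins on chromosomes 2 and 18 were named for their large SD over the 12 rats of the second table, so uneven rats there follow partly from that choice. The MCW SS HS rat at 16.4% belongs to the first table and did not enter that SD. In the bin on chromosome 18 the marked HS_DT rat was as high as the other groups, and the other HS_DT rats were low.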

How the results depend on the processing

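The number of members was 9405 with 20 reads required, 10746 under a 5% limit, 10926 with bins shifted by 250 bp, 8839 when runs of 3 were left out too, and 10922 with levels from summed reads, each within 1.5 times of 10920. No member was called in 84 of 91 alternative fits. edgeR called 11, 16, 19, 15, 20 and 24 members, in the order MCW salt, CRL salt, low-salt colonies, high-salt colonies, HS_SCR minus 0.4% salt and HS_DT minus HS_SCR; the cause was not tested. Leaving out single rats gave 0 to 4 calls for MCW SS LS minus CRL SS LS (4 without MCW SS LS replicate 3) and 0 elsewhere.

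With the replicate number as a block, 0 members were called in each comparison. No pairing of rats by number was seen. Same-numbered rats correlated between -0.185 and 0.152 in their deviations. In no comparison was every correlation over 0.1, and at most 2 of 4 rats, or 2 of 3, correlated best with their own number. With so few rats and bins of so low a level, weak correlations cannot exclude that equal numbers share something.

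Differences in the mean level moved by less than the spread between rats in 77 of 82 alternatives. Weighting bins by reads moved it to 0.360 (MCW salt), 0.112 (CRL salt), -0.250 (low-salt colonies), 0.441 (HS_SCR minus 0.4% salt) and -0.188 (HS_DT minus HS_SCR), and reads are concentrated in the 27 deepest members. Leaving out single rats gave -0.0464 to 0.0965, -0.0610 to -0.0190, -0.0838 to 0.0447, -0.0110 to 0.0999, 0.0159 to 0.0392 and -0.0333 to -0.0101 in the order above. Without the 27 deepest or the recurring-count members, which were alternatives added after seeing the data, each difference moved by less than that spread. Depth limits the first table most, where 1 read in a member bin can exceed the level seen in the second.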
